A study of Homo sapiens with 12 samples.

Results

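The genes described here are those of the transcriptional response to low oxygen and of glucose breakdown, measured in human pancreatic ductal adenocarcinoma cell lines with and without acquired resistance to cisplatin, a platinum drug that crosslinks DNA. The list holds 44 genes chosen by name, 20 of the hypoxia response and 24 of glucose metabolism. A gene was measured where a probe set carried its symbol and no other, and of several such probe sets the brightest on average was taken. By this rule 42 of the 44 genes were measured, 19 of the hypoxia response and 23 of glucose metabolism, among 18417 genes in all. CA9 and PGAM1 were not analysed here.

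Total RNA was hybridized to 12 arrays in 4 groups of 3. AsPC1-R was kept in 1.67 µM cisplatin and is set against its parental line AsPC1, and BxPC3-R was kept in 0.60 µM cisplatin and is set against its parental line BxPC3. All 4 groups were grown in medium with serum, as subconfluent adherent cultures, and the derivatives spent the last passage before harvest without the drug. The labels name no low-oxygen exposure and give no oxygen level. There is 1 derivative per line, so an effect of resistance and a property of that derivative cannot be told apart. Separate cultures behind the arrays of a group are not stated, and p-values here then rest on the spread between these samples alone, which may be technical.

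Hypoxia-inducible factors (HIFs) are pairs of an oxygen-labile alpha subunit, HIF1A or EPAS1 (HIF-2 alpha), and the stable partner ARNT. With oxygen present, prolyl hydroxylases of the EGLN family mark the alpha subunit for breakdown through VHL, and without it the pair binds DNA at a short core motif and raises genes of glucose uptake, glycolysis, blood vessel growth, collagen modification and acid handling. The alpha subunits are controlled mainly as proteins, which arrays do not measure. Pancreatic ductal adenocarcinoma is known for poor perfusion and high glycolysis. Of the genes on the list, the HIF targets and the glycolytic enzymes overlap in known biology, because HIF raises many of the enzymes.

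Levels are log2 values, so a difference of 1 is a 2-fold change, and the number of arrays limits their precision. Array medians lay between 6.48 and 6.65. SMAD4 and CDKN2A are known to be deleted in BxPC3. SMAD4 read 9.90 ± 0.14 in AsPC1 and 4.70 ± 0.49 in BxPC3, and CDKN2A read 6.22 ± 0.11 in BxPC3 (SD, n = 3). Levels up to 6.22 can therefore come from a gene that is absent. CDKN2A averaged 5.75 ± 0.24 in BxPC3-R and was itself called lower there than in BxPC3 (limma, log2 change -0.47, adjusted p = 0.0249). Changes at or under that level are thus uncertain in size, and a call there is no evidence that a transcript is present. The counts below keep such calls, among them PLOD2 in AsPC1-R and PFKFB4 in BxPC3-R. BNIP3, ANGPTL4, SLC2A3 and PFKFB4 lay at or under it in all 4 groups, as did 27.1% of all genes tested, and PLOD2, LOX and PYGL lay at or under it in AsPC1-R and AsPC1.

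The epithelial markers EPCAM and KRT19 averaged 13.06 and 11.36 in AsPC1-R, 13.29 and 11.48 in AsPC1, 12.45 and 10.82 in BxPC3-R, and 12.43 and 10.70 in BxPC3. Other ductal markers moved with the derivatives, and in different directions. In AsPC1-R MUC1 rose by 0.72 while KRT18 (-0.51) and CDH1 (-0.46) fell, and in BxPC3-R KRT8 (1.12), KRT18 (0.78) and KRT7 (0.46) rose while MUC1 (-0.75) fell, all on the log2 scale. The mean of the 7 ductal epithelial markers on single arrays ranged over 10.48 to 10.60 in AsPC1-R, 10.55 to 10.71 in AsPC1, 10.85 to 10.95 in BxPC3-R and 10.59 to 10.73 in BxPC3. For 10 of 11 listed markers of other cell types the ranges were 6.22 to 6.29, 6.09 to 6.38, 5.88 to 6.06 and 6.06 to 6.18 in the same order. The leukocyte marker PTPRC averaged between 3.19 and 3.27 and the endothelial marker VWF between 5.27 and 5.40 in all 4 groups, under the level of a deleted gene. CD68 and PECAM1 moved with the derivatives, by 0.72 and 0.66 in AsPC1-R and by -0.72 and -1.24 in BxPC3-R on the log2 scale. The part of these markers in the results was not tested. In bulk samples, fewer cells of a type and less RNA per cell cannot be told apart.

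1 array stood apart. CDH17, an intestinal cadherin, read 9.002 on BxPC3 replicate 2, against 4.99 and 4.47 on the other BxPC3 arrays, and averaged 13.28 in AsPC1. When the 50 transcripts most in excess in AsPC1 over BxPC3-R were looked up, that array was the highest of the BxPC3 arrays for all 50, by a median of 0.83. None of the 42 genes is among these 50, and of the 8 that were higher in AsPC1 than in BxPC3, 5 were highest on that array. The main counts below that use BxPC3 are also given without it.

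Promoters are shown first for the genes with the largest changes, P4HA2 and PFKFB3, which rose most in AsPC1-R, and EGLN3 and ALDOC, which fell most in BxPC3-R. The sequences are those of RefSeq on GRCh38.p14, 250 bases before to 50 bases after 1 start per gene, written 5′ to 3′ on the gene's strand. Capitals mark matches to the HIF core motif, spelled here ACGTG or GCGTG and searched on both strands, so that a match on the opposite strand reads as CACGT or CACGC. Where 2 matches overlap as CACGTG, which reads the same on both strands and is also an E-box, both were counted.
P4HA2: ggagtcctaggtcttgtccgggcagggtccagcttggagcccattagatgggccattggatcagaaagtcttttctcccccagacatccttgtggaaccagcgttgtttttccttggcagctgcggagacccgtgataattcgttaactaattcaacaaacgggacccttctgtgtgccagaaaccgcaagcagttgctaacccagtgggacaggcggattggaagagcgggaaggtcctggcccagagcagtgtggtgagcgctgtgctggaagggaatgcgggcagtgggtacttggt
PFKFB3: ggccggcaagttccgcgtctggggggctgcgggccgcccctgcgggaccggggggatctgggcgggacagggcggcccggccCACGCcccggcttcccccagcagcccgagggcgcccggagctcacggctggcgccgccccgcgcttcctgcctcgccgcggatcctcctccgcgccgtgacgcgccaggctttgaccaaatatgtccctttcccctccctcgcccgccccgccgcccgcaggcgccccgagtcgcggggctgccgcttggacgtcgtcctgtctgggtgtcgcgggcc
EGLN3: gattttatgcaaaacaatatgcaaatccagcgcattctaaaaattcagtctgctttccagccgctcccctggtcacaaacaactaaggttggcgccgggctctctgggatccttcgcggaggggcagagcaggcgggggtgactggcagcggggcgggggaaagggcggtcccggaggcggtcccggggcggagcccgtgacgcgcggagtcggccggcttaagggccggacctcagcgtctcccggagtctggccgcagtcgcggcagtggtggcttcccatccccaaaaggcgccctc
ALDOC: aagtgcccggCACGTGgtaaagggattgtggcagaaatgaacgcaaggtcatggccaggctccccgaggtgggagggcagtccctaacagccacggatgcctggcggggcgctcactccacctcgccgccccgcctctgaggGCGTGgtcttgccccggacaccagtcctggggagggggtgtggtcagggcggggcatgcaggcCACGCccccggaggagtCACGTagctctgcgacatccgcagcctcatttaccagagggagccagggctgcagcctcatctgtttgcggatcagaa
These windows lie at chr5:132227042-132227341 (minus strand), chr10:6144671-6144970 (plus strand), chr14:33951025-33951324 (minus strand) and chr17:28576846-28577145 (minus strand) in the order shown. The P4HA2 and EGLN3 windows hold no match, PFKFB3 holds 1 and ALDOC holds 5, a pair of which overlap in 1 CACGTG. These windows were picked by size of change and cover 300 bases at 1 start per gene. Other parts of these genes were not searched.

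Over the list, 38 of the 42 promoters were found, and 30 of them, or 78.9%, held ACGTG or GCGTG. Of the 14239 promoters of the genes tested 56.7% did, and of all 35116 promoters of the same length 48.4% did. By motif, 44.7% of the 38 held ACGTG and 55.3% held GCGTG, against 24% and 44.7% of the promoters of the genes tested. The promoters of genes that rose in AsPC1-R held either motif in 8 of 10 (80%), those of genes that fell in BxPC3-R in 8 of 12 (66.7%), and those of genes called in neither derivative in 11 of 15 (73.3%). These shares leave out BNIP3L, NDRG1, VEGFA and SLC2A3, whose promoters were not found. Of these genes, BNIP3L and NDRG1 fell in BxPC3-R, BNIP3L and VEGFA rose in AsPC1-R, and SLC2A3 was called in neither. The matches fell on 6 places in BNIP3, 4 in LOX and 4 in PGK1, and on none in HK1, PFKM, PFKP, TPI1, PDK1 and PYGL beside P4HA2 and EGLN3. A match is a description of letters and not a binding site.

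**Figure D1:**
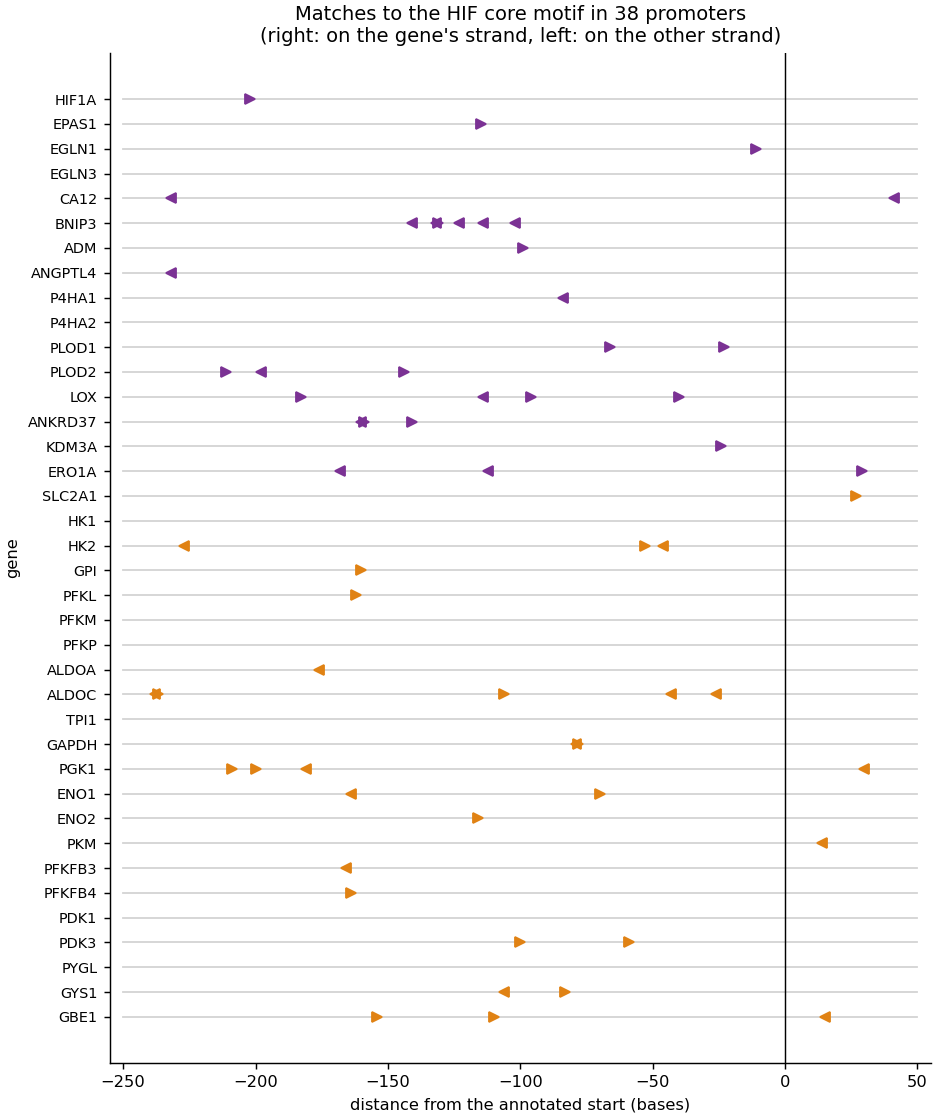
Matches to ACGTG or GCGTG in 38 promoters (1 row per gene on the y axis) by distance in bases from the annotated start (x axis, 250 bases before to 50 after); purple marks hypoxia response genes and orange glucose metabolism genes, and triangles point right for the gene's strand and left for the other. Of the 38 rows 30 hold a match, ALDOC holds 5 and P4HA2 and EGLN3 none, and the overlaid triangles are CACGTG.

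Calls on the list were mostly rises in AsPC1-R and mostly falls in BxPC3-R. In AsPC1-R, 12 of the 42 genes rose and 3 fell at an adjusted p under 0.05 in limma, where 11.6% of all genes rose and 8.64% fell. In BxPC3-R 4 rose and 14 fell, where 9.75% of all genes rose and 11.0% fell. The median log2 change of the 42 genes was 0.059 in AsPC1-R and -0.097 in BxPC3-R, beside -0.050 and 0.019 over all genes. Of the called genes 2 rose at least 2-fold in AsPC1-R and none fell that far, where 1.89% and 0.440% of all genes did. In BxPC3-R none rose at least 2-fold and 3 fell that far, where 0.597% and 1.73% of all genes did. Without BxPC3 replicate 2 the counts were 12 higher and 2 lower in AsPC1-R, and 3 higher and 12 lower in BxPC3-R. No call changed direction without it, the 2-fold counts were the same, and the largest shift of a change was 0.15, for CA12. The smaller counts rested on few arrays. With 1 array left out in turn, 10 to 16 rose and 1 to 3 fell in AsPC1-R, the falls being 1 without AsPC1-R replicate 1 or AsPC1 replicate 1. In BxPC3-R 1 to 6 rose and 12 to 15 fell, the rises being 1 without BxPC3-R replicate 1, 2 without BxPC3 replicate 1 and 6 without AsPC1 replicate 2. With each array centred on its own median, 13 rose and 1 fell in AsPC1-R and 4 rose and 13 fell in BxPC3-R.

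In AsPC1-R 7 of 19 hypoxia response genes rose and 1 fell (36.8% and 5.26%). Of the 23 glucose metabolism genes 5 rose and 2 fell (21.7% and 8.7%), where 11.6% and 8.64% of all genes did. In BxPC3-R 1 of 19 hypoxia response genes rose and 8 fell (5.26% and 42.1%). Of the 23 glucose metabolism genes 3 rose and 6 fell (13% and 26.1%), where 9.75% and 11.0% of all genes did. Without BxPC3 replicate 2 the hypoxia response counts were 7 and 0 in AsPC1-R and 1 and 8 in BxPC3-R, and the glucose metabolism counts 5 and 2 in AsPC1-R and 2 and 4 in BxPC3-R. Whether the 2 classes differ was not tested. 5 genes rose in AsPC1-R and fell in BxPC3-R, namely EGLN3, BNIP3L, P4HA2, PLOD2 and SLC2A1, or 11.9% of the list where 3.43% of all genes did so. GPI did the reverse (1.95% of all genes), PDK1 fell in both (1.10% of all genes) and none rose in both (1.27% of all genes). Called in neither were 16, or 38.1% of the list against 66.7% of all genes. Shares of all genes, here and elsewhere, include the 27.1% at or under the level of a deleted gene in all 4 groups. Among the 42 genes 4 lay there. With genes under the median level left out, 12328 genes remained, 38 of them on the list. AsPC1-R then differed from AsPC1 for 3912 of these genes (2264 higher, 1648 lower) and 18 of the 38 (14 higher, 4 lower). BxPC3-R then differed from BxPC3 for 3929 (1874 higher, 2055 lower) and 19 (4 higher, 15 lower). Called shares were thus higher among brighter genes. Of the 38, 10 were called in neither, and 7 rose in AsPC1-R and fell in BxPC3-R, with VEGFA and HK1 added. The shares of the 12328 genes with these 2 patterns were not determined. With 1 array left out in turn, 3 to 7 genes rose in AsPC1-R and fell in BxPC3-R, and 13 to 20 were called in neither. The first count was 3, of P4HA2, PLOD2 and SLC2A1, without AsPC1-R replicate 1 or 2 or AsPC1 replicate 2. It was 7 without AsPC1 replicate 3, with VEGFA and HK1 added, and 4 without BxPC3 replicate 2, with SLC2A1 lost and 19 genes called in neither. P4HA2 and PLOD2 were among them each time. PLOD2 lay under the level of a deleted gene in AsPC1-R and AsPC1, so its rise there is uncertain.

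**Figure D2:**
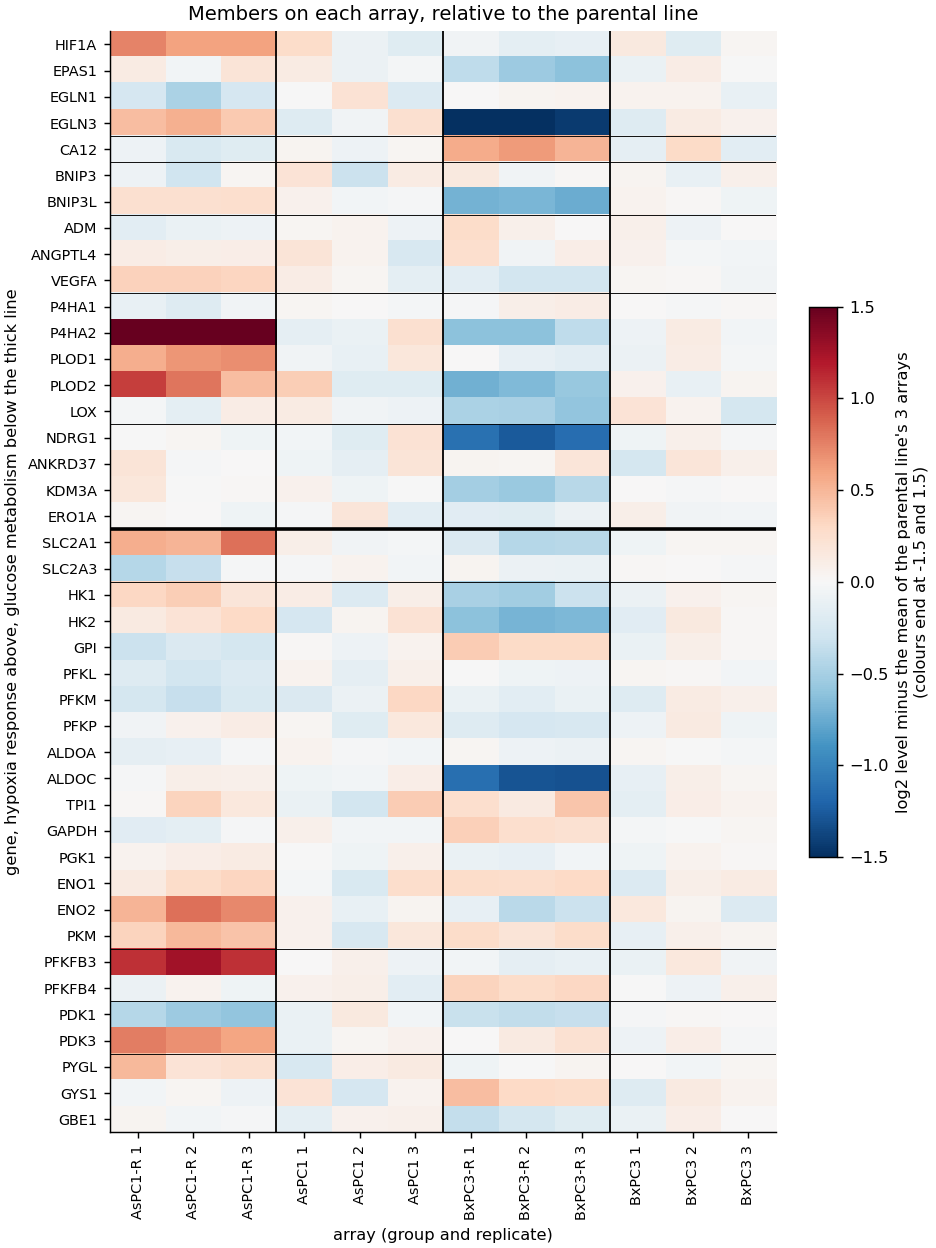
Each of the 42 genes (rows, hypoxia response above the thick line and glucose metabolism below) on each of the 12 arrays (columns), coloured by its log2 level minus the mean of the 3 arrays of the parental line, red higher and blue lower, with colours ending at the ends of the scale. P4HA2, PFKFB3 and HIF1A are red on all AsPC1-R arrays, and EGLN3, ALDOC and NDRG1 are blue on all BxPC3-R arrays.

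**Figure D3:**
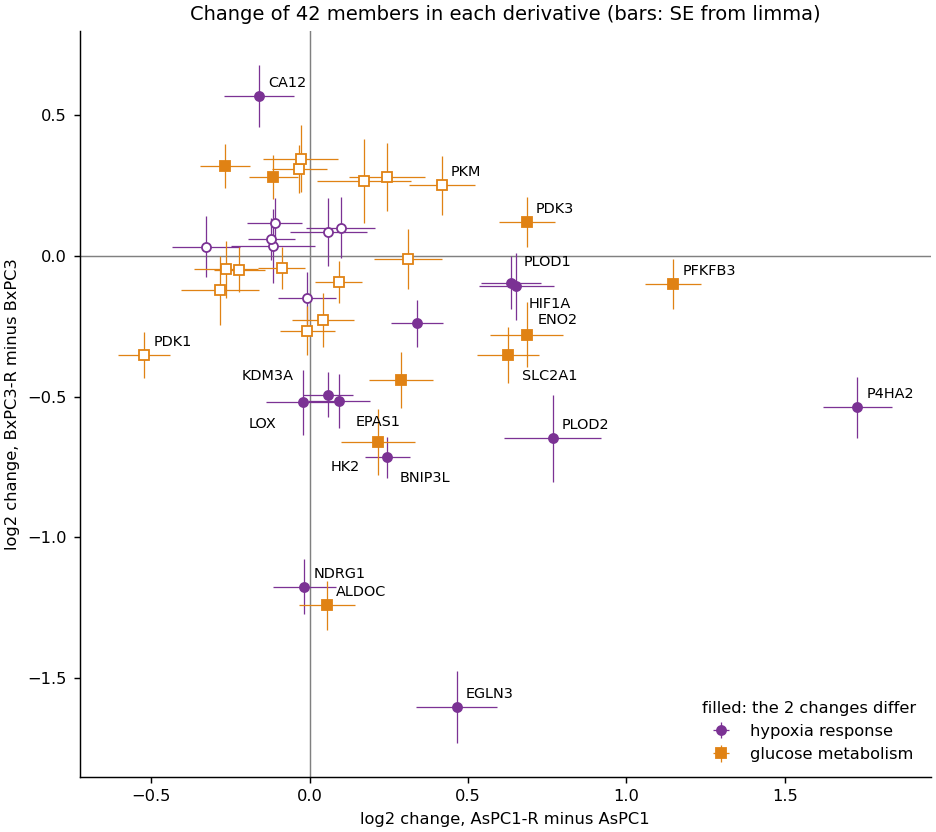
Log2 change of each of the 42 genes in AsPC1-R against AsPC1 (x axis) and in BxPC3-R against BxPC3 (y axis), with bars of 1 SE from limma, purple circles for hypoxia response, orange squares for glucose metabolism, and filled symbols for the 21 genes whose 2 changes differ at an adjusted p under 0.05. P4HA2 lies farthest right at 1.73, EGLN3 lowest at -1.60, and CA12 highest at 0.57.

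The HIF alpha subunits moved in different lines. HIF1A read 11.36, 11.22 and 11.22 on the AsPC1-R arrays and 10.89, 10.52 and 10.43 on the AsPC1 arrays, and 12.19, 12.09 and 12.11 on the BxPC3-R arrays and 12.39, 12.05 and 12.27 on the BxPC3 arrays. All AsPC1-R arrays lay above all AsPC1 arrays, while the BxPC3-R and BxPC3 arrays overlapped. HIF1A was 1.57-fold higher in AsPC1-R (log2 change 0.65, SE 0.12, adjusted p = 0.0013) and was not called in BxPC3-R (log2 change -0.11, SE 0.12, adjusted p = 0.619). It was highest in the BxPC3 lineage with or without resistance.

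EPAS1 read 9.38, 9.21 and 9.45 in AsPC1-R and 9.37, 9.16 and 9.22 in AsPC1, and 9.62, 9.45 and 9.39 in BxPC3-R and 9.90, 10.11 and 9.99 in BxPC3. All BxPC3-R arrays lay below all BxPC3 arrays, and the AsPC1-R and AsPC1 arrays overlapped. It fell in BxPC3-R (log2 change -0.52, SE 0.097, adjusted p = 0.00157) and was not called in AsPC1-R (log2 change 0.093, SE 0.097, adjusted p = 0.547). Both alpha subunits thus had changes that differed between the lines, by 0.76 ± 0.17 for HIF1A and 0.61 ± 0.14 for EPAS1 (AsPC1-R change minus BxPC3-R change, SE, adjusted p = 0.00402 and 0.00467).

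Of the prolyl hydroxylases, EGLN3 (PHD3) is itself a well known HIF target, and EGLN1 (PHD2) is the main oxygen sensor for HIF1A. EGLN3 read 8.11, 8.18 and 8.04 in AsPC1-R and 7.45, 7.596 and 7.89 in AsPC1, and 7.25, 7.52 and 7.63 in BxPC3-R and 8.87, 9.20 and 9.13 in BxPC3. The groups overlapped in neither line. EGLN3 had the largest fall of the 42 genes, 3.03-fold in BxPC3-R (log2 change -1.60, SE 0.13, adjusted p = 1.02e-06), and rose in AsPC1-R (log2 change 0.46, SE 0.13, adjusted p = 0.0196). The rise was not called without AsPC1-R replicate 1 or 2, or without AsPC1 replicate 1 or 2 (adjusted p between 0.0555 and 0.0863). EGLN1 fell by 1.25-fold in AsPC1-R (log2 change -0.33, SE 0.11, adjusted p = 0.0452), a call kept with only 1 of the single arrays left out, AsPC1 replicate 3 (adjusted p between 0.0525 and 0.179 without each of the other 11), and lost with arrays centred on their medians (0.0564) or with AsPC1-R and AsPC1 fitted alone (0.121). It had a log2 change of 0.033 in BxPC3-R (adjusted p = 0.886).

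CA12, a membrane carbonic anhydrase that handles acid outside the cell, was the exception among hypoxia genes. It read 7.54, 7.61 and 7.49 in BxPC3-R and 6.84, 7.27 and 6.83 in BxPC3, and 7.71, 7.57 and 7.61 in AsPC1-R and 7.83, 7.72 and 7.82 in AsPC1. All BxPC3-R arrays lay above all BxPC3 arrays. It was the sole hypoxia gene that rose in BxPC3-R (log2 change 0.57, SE 0.11, adjusted p = 0.00186), and it was not called in AsPC1-R (log2 change -0.16, SE 0.11, adjusted p = 0.345), although all AsPC1-R arrays lay below all AsPC1 arrays.

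BNIP3L and BNIP3 are receptors that mark mitochondria for removal. BNIP3L read 10.64, 10.64 and 10.65 in AsPC1-R and 10.46, 10.36 and 10.38 in AsPC1, and 9.88, 9.90 and 9.84 in BxPC3-R and 10.64, 10.60 and 10.52 in BxPC3. The groups overlapped in neither line. It fell in BxPC3-R (log2 change -0.72, SE 0.072, adjusted p = 8.16e-06) and rose slightly in AsPC1-R (log2 change 0.25, SE 0.072, adjusted p = 0.0262), a call lost without any 1 AsPC1-R array or without AsPC1 replicate 2 (adjusted p between 0.0637 and 0.0702), or with AsPC1-R and AsPC1 fitted alone (0.102). BNIP3, which lay under the level of a deleted gene in all groups, was called in neither.

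VEGFA, the main growth factor for blood vessels, read 9.30, 9.30 and 9.28 in AsPC1-R and 9.07, 8.98 and 8.81 in AsPC1, and 9.92, 9.80 and 9.80 in BxPC3-R and 10.11, 10.09 and 10.03 in BxPC3. AsPC1-R lay above AsPC1 and BxPC3-R below BxPC3 on every array. The rise in AsPC1-R was called (log2 change 0.34, SE 0.082, adjusted p = 0.00912), and the difference in BxPC3-R was just not (log2 change -0.24, SE 0.082, adjusted p = 0.0548), though it was called without AsPC1 replicate 1 or 3 (adjusted p = 0.0449 and 0.0293). The fall in BxPC3-R was also called with genes under the median level left out (0.0291) or with BxPC3-R and BxPC3 fitted alone (0.0491). With eBayes with trend and robust it was called too (0.032). The other secreted products, the vasodilator peptide ADM and the lipase inhibitor ANGPTL4, were called in neither derivative, with changes between -0.11 and 0.12.

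The enzymes that modify and crosslink collagen held the largest rise of the list. P4HA2, a catalytic subunit of collagen prolyl 4-hydroxylase, read 9.07, 9.07 and 9.18 in AsPC1-R and 7.24, 7.28 and 7.61 in AsPC1, and 8.45, 8.44 and 8.68 in BxPC3-R and 8.98, 9.18 and 9.02 in BxPC3. The groups overlapped in neither line. It rose 3.32-fold in AsPC1-R (log2 change 1.73, SE 0.11, adjusted p = 7.19e-08), to a level of 9.11 ± 0.064 beside 9.06 ± 0.11 in BxPC3 (SD, n = 3), and it fell in BxPC3-R (log2 change -0.54, SE 0.11, adjusted p = 0.00264). Its paralogue P4HA1, at 10.57 in AsPC1 and 10.58 in BxPC3, was called in neither, with intervals of -0.28 to 0.038 in AsPC1-R and -0.10 to 0.22 in BxPC3-R (95%, log2).

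The lysyl hydroxylases and lysyl oxidase followed. PLOD1 read 8.85, 8.96 and 9.001 in AsPC1-R and 8.25, 8.19 and 8.47 in AsPC1, and 9.12, 8.99 and 8.96 in BxPC3-R and 9.03, 9.23 and 9.09 in BxPC3. It rose in AsPC1-R (log2 change 0.64, SE 0.095, adjusted p = 0.000268), with no overlap, and was not called in BxPC3-R (log2 change -0.095, SE 0.095, adjusted p = 0.578). PLOD2, which hydroxylates the ends of collagen chains, read 11.17, 11.23 and 11.32 in BxPC3-R and 11.96, 11.78 and 11.93 in BxPC3 and fell there (log2 change -0.65, SE 0.15, adjusted p = 0.00765). In AsPC1-R it read 4.94, 4.70 and 4.37 and in AsPC1 4.27, 3.72 and 3.72, a called rise (log2 change 0.77, SE 0.15, adjusted p = 0.00271) that lies wholly under the level of a deleted gene. LOX, which starts collagen crosslinks, read 6.96, 6.95 and 6.85 in BxPC3-R and 7.64, 7.50 and 7.17 in BxPC3, with a fall (log2 change -0.52, SE 0.12, adjusted p = 0.00477). On the AsPC1-R arrays it read 5.14, 5.03 and 5.29 and on the AsPC1 arrays 5.30, 5.12 and 5.10, too low to tell from an absent gene.

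Among the other HIF targets, 2 of 4 fell in BxPC3-R, where 11.0% of all genes fell. None was called in AsPC1-R, where 20.3% of all genes were. NDRG1, a stress-induced growth regulator, read 8.12, 7.98 and 8.09 in BxPC3-R and 9.18, 9.32 and 9.23 in BxPC3, and 8.71, 8.74 and 8.65 in AsPC1-R and 8.67, 8.54 and 8.94 in AsPC1. Its BxPC3-R arrays were all lower, by 2.26-fold (log2 change -1.18, SE 0.098, adjusted p = 1.6e-06), and its AsPC1-R arrays overlapped those of AsPC1 (log2 change -0.016, SE 0.098, adjusted p = 0.931). KDM3A, a histone H3 lysine demethylase, averaged 9.07 ± 0.075 in BxPC3-R and 9.56 ± 0.013 in BxPC3 (log2 change -0.49, SE 0.079, adjusted p = 0.000442). ANKRD37 and the endoplasmic reticulum oxidase ERO1A were called in neither, with changes between -0.15 and 0.085.

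**Figure D4:**
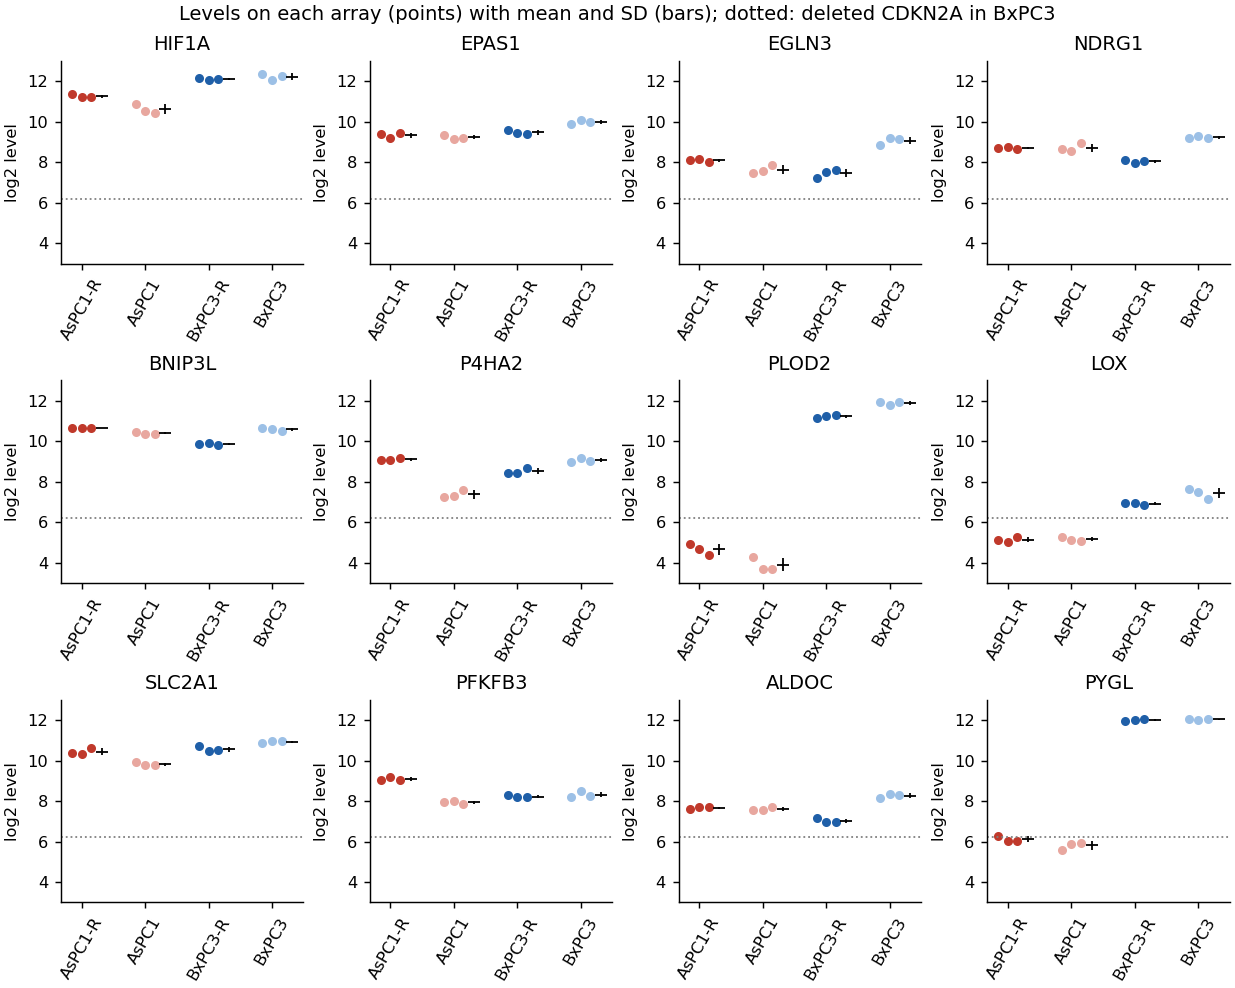
Log2 level on each array (points) of 12 of the genes, with the mean and SD of each group (bars) to the right of its points, and the level of the deleted CDKN2A in BxPC3 as a dotted line. P4HA2 lies higher in AsPC1-R than in AsPC1 on every array, EGLN3, NDRG1 and ALDOC lie lower in BxPC3-R than in BxPC3, and PLOD2 and PYGL lie near or under the dotted line in AsPC1-R and AsPC1 but not in BxPC3-R and BxPC3.

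Of the glucose transporters, SLC2A1 rose in one derivative and fell in the other. SLC2A1 (GLUT1), the basal glucose transporter of most cells, read 10.38, 10.33 and 10.65 in AsPC1-R and 9.91, 9.77 and 9.80 in AsPC1, and 10.71, 10.50 and 10.50 in BxPC3-R and 10.86, 10.95 and 10.96 in BxPC3. The groups overlapped in neither line. It rose 1.54-fold in AsPC1-R (log2 change 0.63, SE 0.098, adjusted p = 0.000389) and fell in BxPC3-R (log2 change -0.35, SE 0.098, adjusted p = 0.0189), where the call was lost without BxPC3-R replicate 2 or 3 or BxPC3 replicate 2 or 3 (adjusted p between 0.0586 and 0.0819). SLC2A3 (GLUT3) lay under the level of a deleted gene in all groups and was called in neither.

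Of the 15 listed glycolytic enzymes 14 were measured. Among these, 2 rose and 1 fell in AsPC1-R, and 2 rose and 3 fell in BxPC3-R, shares of 14.3% and 7.14%, and of 14.3% and 21.4%, beside 11.6% and 8.64%, and 9.75% and 11.0%, of all genes. All 14 enzymes lay above the level of a deleted gene, while 27.1% of all genes did not. Called shares were higher among brighter genes, so the shares of all genes are a low measure for these enzymes. Without BxPC3 replicate 2 the BxPC3-R counts were 1 and 3. Their medians were 0.073 in AsPC1-R and -0.070 in BxPC3-R. The 11 enzymes not called in AsPC1-R all had 95% intervals within a 1.5-fold change either way, the widest bounds being -0.55 for PFKM and 0.51 for HK1. In BxPC3-R 8 of 9 did, with bounds from -0.53 for ENO2 to 0.586 for TPI1, just over the 1.5-fold bound of 0.585 on the log2 scale.

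In order along the pathway, the hexokinases, which trap glucose in the cell, fell in BxPC3-R. HK2, the inducible form, read 8.90, 8.82 and 8.85 in BxPC3-R and 9.35, 9.66 and 9.53 in BxPC3, and 8.53, 8.603 and 8.70 in AsPC1-R and 8.14, 8.43 and 8.61 in AsPC1. It fell 1.58-fold in BxPC3-R (log2 change -0.66, SE 0.12, adjusted p = 0.000863) and was not called in AsPC1-R, where the arrays overlapped (log2 change 0.22, SE 0.12, adjusted p = 0.222). HK1 averaged 7.82 ± 0.10 in BxPC3-R and 8.26 ± 0.075 in BxPC3 (log2 change -0.44, SE 0.10, adjusted p = 0.00581), and 7.44 ± 0.098 in AsPC1-R and 7.15 ± 0.18 in AsPC1 (adjusted p = 0.059).

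GPI, the isomerase after hexokinase, moved in the reverse directions: it fell in AsPC1-R (log2 change -0.27, SE 0.079, adjusted p = 0.0285) and rose in BxPC3-R (log2 change 0.32, SE 0.079, adjusted p = 0.0102). The fall was lost without AsPC1-R replicate 1 or 3 or AsPC1 replicate 1 or 3 (adjusted p between 0.0646 and 0.108), with arrays centred on their medians (0.0921) or with AsPC1-R and AsPC1 fitted alone (0.0867), and the rise without BxPC3-R replicate 1 (adjusted p = 0.0506). The phosphofructokinase subunits PFKL, PFKM and PFKP were called in neither derivative, with changes between -0.28 and 0.043. Without AsPC1 replicate 2, PFKL was called in AsPC1-R (log2 change -0.29, adjusted p = 0.0189). It was also called there with genes under the median level left out (0.0362) or with a further quantile normalization (0.0499).

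ALDOC, the aldolase form best known from brain, read 7.15, 6.99 and 6.97 in BxPC3-R and 8.16, 8.37 and 8.31 in BxPC3, and 7.604, 7.71 and 7.70 in AsPC1-R and 7.56, 7.57 and 7.72 in AsPC1. All BxPC3-R arrays lay below all BxPC3 arrays, and the AsPC1-R and AsPC1 arrays overlapped. It fell 2.36-fold in BxPC3-R (log2 change -1.24, SE 0.088, adjusted p = 2.88e-07), the largest change of the 14 enzymes in either derivative, and was not called in AsPC1-R (log2 change 0.054, SE 0.088, adjusted p = 0.711). The main aldolase of most tissues, ALDOA, was called in neither, with intervals of -0.25 to 0.072 in AsPC1-R and -0.20 to 0.12 in BxPC3-R.

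Further down the pathway, GAPDH rose 1.21-fold in BxPC3-R (log2 change 0.28, SE 0.078, adjusted p = 0.0189), a call lost without BxPC3-R replicate 1 or BxPC3 replicate 1 or 2 (adjusted p between 0.0511 and 0.088) or with a further quantile normalization (0.071), and had a log2 change of -0.11 in AsPC1-R (adjusted p = 0.345). PGK1, which makes the first ATP of the pathway, was called in neither, with intervals of -0.067 to 0.25 in AsPC1-R and -0.25 to 0.067 in BxPC3-R. TPI1 and ENO1 were called in neither, with changes between 0.17 and 0.28. The 2 probe sets of TPI1 differed: the one used gave 0.17 in AsPC1-R and 0.27 in BxPC3-R, and the dimmer one -0.041 and 0.42.

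ENO2, an enolase best known from neurons, read 7.28, 7.58 and 7.48 in AsPC1-R and 6.83, 6.65 and 6.81 in AsPC1, and 6.74, 6.46 and 6.54 in BxPC3-R and 7.02, 6.90 and 6.66 in BxPC3. It rose 1.61-fold in AsPC1-R (log2 change 0.69, SE 0.12, adjusted p = 0.00071) with no overlap, and in BxPC3-R it was not called (log2 change -0.28, SE 0.12, adjusted p = 0.112) except without BxPC3 replicate 3 (adjusted p = 0.0433). PKM, which makes pyruvate, averaged 12.09 ± 0.078 in AsPC1-R and 11.67 ± 0.21 in AsPC1 and rose (log2 change 0.42, SE 0.10, adjusted p = 0.0107). In BxPC3-R it averaged 12.39 ± 0.044 and in BxPC3 12.14 ± 0.11, not called (log2 change 0.25, SE 0.10, adjusted p = 0.115). Among single arrays left out, it was called there only without AsPC1 replicate 2 (adjusted p = 0.0405). PKM was also called in BxPC3-R with eBayes with trend and robust (0.0387). Without AsPC1 replicate 3, HK1, TPI1, ENO1 and the glycogen phosphorylase PYGL were also called higher in AsPC1-R (adjusted p = 0.0452, 0.0479, 0.029 and 0.0301). With genes under the median level left out, HK1 (0.0353) and PYGL (0.0345) were called there too. PYGL was also called with a further quantile normalization (0.0218), median centring (0.0371) or eBayes with trend and robust (0.0347).

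Regulators act at the pathway's control points. PFKFB3 makes fructose 2,6-bisphosphate, the strongest activator of phosphofructokinase. It read 9.03, 9.19 and 9.03 in AsPC1-R and 7.94, 8.01 and 7.86 in AsPC1, and 8.29, 8.19 and 8.21 in BxPC3-R and 8.23, 8.48 and 8.27 in BxPC3. Its AsPC1-R arrays were all above every other array, 2.22-fold over AsPC1 (log2 change 1.15, SE 0.089, adjusted p = 5.56e-07), and it was not called in BxPC3-R (log2 change -0.099, SE 0.089, adjusted p = 0.527). Its relative PFKFB4 rose in BxPC3-R (log2 change 0.31, SE 0.086, adjusted p = 0.0197) at levels under that of a deleted gene, a call lost without BxPC3-R replicate 1 or 3 or BxPC3 replicate 1 or 2 (adjusted p between 0.0503 and 0.0757).

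Pyruvate dehydrogenase kinases switch off pyruvate dehydrogenase, the mitochondrial enzyme complex that turns pyruvate into acetyl-CoA, and their 2 members on the list went opposite ways in AsPC1-R. PDK3 read 7.40, 7.32 and 7.22 in AsPC1-R and 6.53, 6.66 and 6.70 in AsPC1, and 8.28, 8.41 and 8.51 in BxPC3-R and 8.20, 8.38 and 8.26 in BxPC3. It rose in AsPC1-R (log2 change 0.69, SE 0.089, adjusted p = 8.48e-05) and was not called in BxPC3-R (log2 change 0.12, SE 0.089, adjusted p = 0.422). PDK1, one of the best known HIF targets, averaged 9.42 ± 0.081 in AsPC1-R and 9.94 ± 0.13 in AsPC1, and 9.09 ± 0.015 in BxPC3-R and 9.44 ± 0.022 in BxPC3. It was the single gene of the list to fall in both derivatives, with log2 changes of -0.52 in AsPC1-R (adjusted p = 0.000413) and -0.35 in BxPC3-R (adjusted p = 0.00655), and the groups overlapped in neither line.

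Of the 3 glycogen enzymes, none was called in AsPC1-R and 1 was called in BxPC3-R, shares of 0% and 33.3% beside 20.3% and 20.8% of all genes. GBE1, the branching enzyme, fell in BxPC3-R (log2 change -0.27, SE 0.087, adjusted p = 0.0452), but the call was lost without any 1 AsPC1-R or BxPC3-R array, or without BxPC3 replicate 2 or 3 (adjusted p between 0.0529 and 0.174). It was also lost with arrays centred on their medians (0.0955) or with BxPC3-R and BxPC3 fitted alone (0.0528). The synthase GYS1 was called higher in BxPC3-R without AsPC1 replicate 1 or 2 or BxPC3 replicate 2 (adjusted p = 0.0388, 0.0196 and 0.0432) but not with all arrays (log2 change 0.35, adjusted p = 0.053). GYS1 was also called with genes under the median level left out (0.0333) or with BxPC3-R and BxPC3 fitted alone (0.0433). A further quantile normalization (0.0436) or eBayes with trend and robust (0.0355) gave the call as well. SLC2A3 was called lower in AsPC1-R without AsPC1-R replicate 3 alone (adjusted p = 0.00748). The remaining calls held more firmly: 11 of 15 in AsPC1-R and 13 of 18 in BxPC3-R were kept in each of 19 alternatives at the same threshold.

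**Figure D5:**
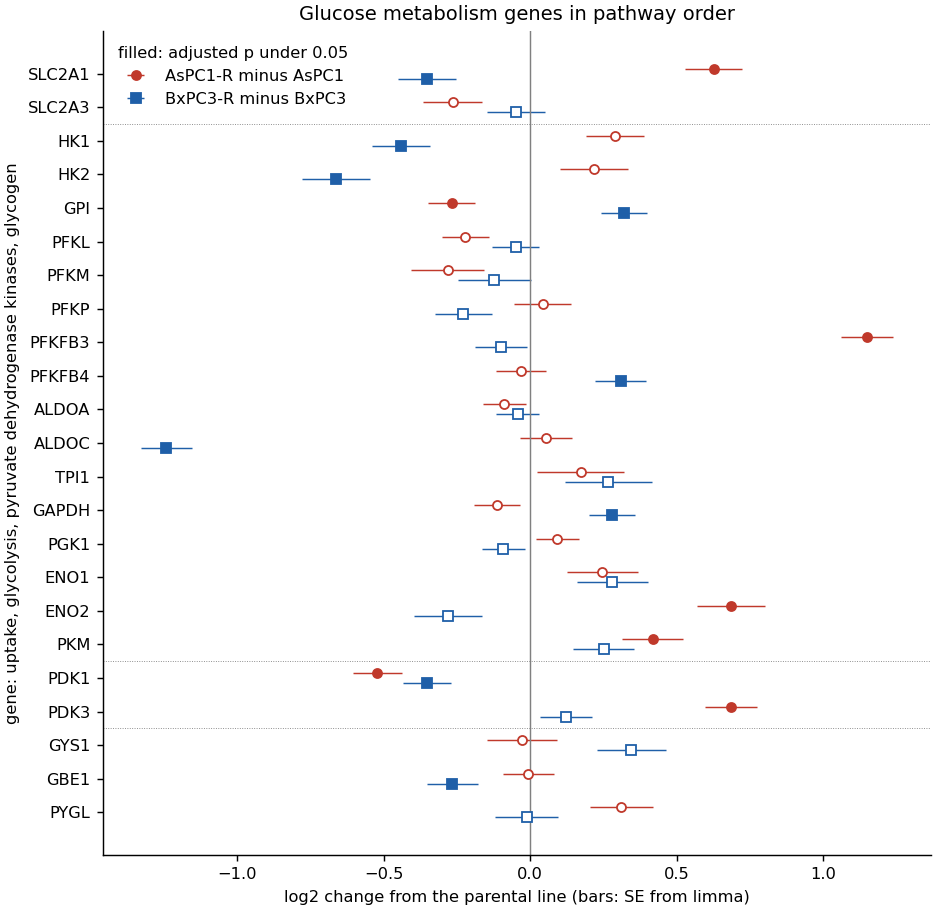
Log2 change from the parental line (x axis, bars of 1 SE from limma) of the 23 glucose metabolism genes in pathway order (y axis), with red circles for AsPC1-R, blue squares for BxPC3-R and filled symbols for an adjusted p under 0.05. PFKFB3, ENO2, PDK3, SLC2A1 and PKM lie to the high side in AsPC1-R, and ALDOC, HK2 and HK1 to the low side in BxPC3-R. PDK1 lies to the low side in both, and most other genes lie nearer 0.

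The change in AsPC1-R minus that in BxPC3-R was tested directly for each gene. It was higher for 18 of the 42 genes and lower for 3, where 14.1% of all genes were higher and 11.3% lower, and its median was 0.22 beside -0.070 over all genes. At least 2-fold differences were called for 6 genes on the high side and none on the low side, where 4.52% and 1.76% of all genes had them. By class, 11 of 19 hypoxia response genes were higher and 1 lower, and 7 of 23 glucose metabolism genes were higher and 2 lower, of which the 14 glycolytic enzymes gave 4 and 2. P4HA2 (2.27 ± 0.16), EGLN3 (2.07 ± 0.18) and PLOD2 (1.41 ± 0.22) had the largest differences (SE), and CA12, GPI and GAPDH were those on the low side (-0.73 ± 0.16, -0.59 ± 0.11 and -0.39 ± 0.11). ALDOC, PFKFB3 and NDRG1 followed, with differences of 1.29, 1.25 and 1.16. The AsPC1-R and AsPC1 levels of PLOD2 lay under that of a deleted gene, so its difference is uncertain. The call for LOX was lost without any 1 of 9 arrays, the exceptions being AsPC1-R replicate 2, AsPC1 replicate 1 and BxPC3 replicate 3 (adjusted p between 0.058 and 0.0917), and that for GAPDH without BxPC3-R replicate 1 (adjusted p = 0.0502) or with a further quantile normalization (0.0839). Without BxPC3 replicate 2 the counts were 17 higher and 3 lower, of which 10 and 1 were hypoxia response genes and 7 and 2 glucose metabolism genes. EGLN1, GYS1 and PFKFB4 were called lower with 1 array left out: EGLN1 without AsPC1 replicate 3 (adjusted p = 0.0225), GYS1 without AsPC1 replicate 2 (0.0223), and PFKFB4 without AsPC1-R replicate 2 (0.0491) or AsPC1 replicate 3 (0.0138).

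Between the parental lines, the genes were mostly lower in AsPC1. The comparison AsPC1 minus BxPC3 called 8 of 42 higher and 26 lower, where 27.7% of all genes were higher and 22.9% lower, and its median was -0.48 beside 0.11 over all genes. It uses the same parental arrays as the derivative comparisons, so its values are given beside theirs and not set against them. Hypoxia response genes were higher in 3 and lower in 12 of 19, and glucose metabolism genes in 5 and 14 of 23, of which the glycolytic enzymes gave 3 and 8 of 14. In this comparison 11 of the 42 genes were called at least 2-fold lower in AsPC1 and none at least 2-fold higher, where 7.03% and 4.05% of all genes were. Without BxPC3 replicate 2 the counts were 6 higher and 23 lower, with BNIP3L, ANKRD37, SLC2A3, PFKL and PGK1 no longer called (adjusted p = 0.0965, 0.0567, 0.051, 0.0728 and 0.0592). By class the counts without that array were 3 higher and 10 lower for the hypoxia response, and 3 and 13 for glucose metabolism, with 2 and 7 among the glycolytic enzymes. The 2-fold counts were the same.

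2 genes stood far apart between the parental lines. PLOD2 averaged 3.90 ± 0.32 in AsPC1 and 11.89 ± 0.094 in BxPC3 (log2 difference -7.99 ± 0.15, SE, adjusted p = 5.5e-14). PYGL, the liver form of glycogen phosphorylase, which frees glucose units from glycogen, read 6.30, 6.01 and 6.05 in AsPC1-R, 5.58, 5.91 and 5.95 in AsPC1, 11.97, 12.03 and 12.08 in BxPC3-R and 12.05, 11.996 and 12.07 in BxPC3. It was lower in AsPC1 than in BxPC3 (log2 change -6.22, SE 0.11, adjusted p = 1.82e-14) and was called in neither derivative. Both genes lay at or under the level of a deleted gene in AsPC1, so these differences are uncertain in size.

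Next in size came LOX (log2 change -2.27, SE 0.12, adjusted p = 8.02e-10), P4HA2 (-1.69), PDK3 (-1.65), HIF1A (-1.62) and EGLN3 (-1.42), all lower in AsPC1. VEGFA, HK2, HK1 and SLC2A1 were lower too, with log2 differences of -1.13, -1.12, -1.11 and -1.10. The genes higher in AsPC1 were CA12 (0.81), PFKP (0.52), PDK1 (0.50), EGLN1 (0.46), KDM3A (0.43), PFKM (0.38), SLC2A3 (0.30) and PFKL (0.21). Of these, PFKL lost its call without any array but AsPC1-R replicate 2 and AsPC1 replicate 2 (adjusted p between 0.05 and 0.12). PFKM lost it without AsPC1 replicate 3 or BxPC3 replicate 1 (0.0846 and 0.0916), and SLC2A3 without AsPC1 replicate 2 or BxPC3 replicate 2 or 3 (between 0.051 and 0.063). With arrays centred on their medians PFKL and PFKM were not called (0.134 and 0.0513), and with AsPC1 and BxPC3 fitted alone PFKL, PFKM, PGK1 and BNIP3L were not (0.119, 0.0698, 0.0732 and 0.134). Among the lower genes, PGK1 lost its call without AsPC1 replicate 2 or BxPC3 replicate 2 or 3 (adjusted p between 0.0535 and 0.0592), and BNIP3L without any array but AsPC1-R replicate 2, AsPC1 replicate 1 and BxPC3 replicate 3 (between 0.052 and 0.106). Gains with 1 array left out came without AsPC1 replicate 2 for BNIP3 (0.0372), without AsPC1 replicate 3 for PFKFB4 (0.0408) and without AsPC1 replicate 1 for GAPDH (0.0435). GAPDH was also called lower with a further quantile normalization (0.00759) or eBayes with trend and robust (0.00543). With genes under the median level left out, GAPDH (0.0361) and ALDOA (0.0474) were called lower. Median centring gave these calls too (0.0284 and 0.0339).

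Genes around the list, 76 of 86 named, were read in the same fit. In AsPC1-R 17 of the 76 rose and 8 fell, or 22.4% and 10.5%, where 11.6% and 8.64% of all genes did. In BxPC3-R 4 rose and 24 fell, or 5.26% and 31.6%, where 9.75% and 11.0% of all genes did, and 5 and 17 did without BxPC3 replicate 2. Their median log2 changes were 0.024 in AsPC1-R and -0.064 in BxPC3-R, beside -0.050 and 0.019 over all genes. Of 24 further HIF targets measured, 6 rose and 2 fell in AsPC1-R, and 1 rose and 9 fell in BxPC3-R (2 and 8 without that array). STC1, a secreted glycoprotein, averaged 7.595 ± 0.086 in AsPC1-R and 6.70 ± 0.027 in AsPC1, and 10.17 ± 0.13 in BxPC3-R and 11.36 ± 0.22 in BxPC3 (log2 changes 0.90 ± 0.11 and -1.19 ± 0.11, SE). MXI1, which opposes MYC, fell in BxPC3-R (log2 change -0.86), and JMJD6 rose in AsPC1-R (0.61). TMEM45A changed by 0.62 in AsPC1-R, at a level under that of a deleted gene, and by -0.77 in BxPC3-R. Of 7 HIF partners and regulators, CITED2, which competes with HIF for its coactivators, rose in AsPC1-R (0.39), and VHL (-0.51) and ARNT (-0.25) fell in BxPC3-R, both no longer called without BxPC3 replicate 2.

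The lists for neighbouring branches of glucose use hold few genes, and 20.3% of all genes were called in AsPC1-R and 20.8% in BxPC3-R. In the pentose phosphate pathway, which makes NADPH and ribose, 3 of 6 measured genes rose in AsPC1-R and 3 of 6 fell in BxPC3-R, also without BxPC3 replicate 2. These were PGD (0.62 and -0.55), TALDO1 (0.49 and -0.51) and TKT (0.37 and -0.40) each time. Of 8 genes of the pyruvate dehydrogenase complex and its regulators, 2 rose and 1 fell in AsPC1-R and 4 fell in BxPC3-R (2 without BxPC3 replicate 2). PDP1, the phosphatase that switches the complex on, averaged 11.06 ± 0.030 in AsPC1-R and 9.35 ± 0.24 in AsPC1, and 10.30 ± 0.076 in BxPC3-R and 11.26 ± 0.071 in BxPC3 (log2 changes 1.70 ± 0.11 and -0.96 ± 0.11, SE). The kinase PDK2 fell in BxPC3-R (-0.66), as did the E1 subunit PDHB (-0.56), whose call was lost without that array.

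Among 15 further genes of glycolysis and glucose transport, 3 rose and 1 fell in AsPC1-R, and 2 rose and 3 fell in BxPC3-R (2 and 2 without BxPC3 replicate 2). The shares were 20% and 6.67% in AsPC1-R, beside 11.6% and 8.64% of all genes. In BxPC3-R they were 13.3% and 20%, beside 9.75% and 11.0%. TIGAR, a p53 target that lowers fructose 2,6-bisphosphate, rose in both, by 0.60 in AsPC1-R, from an AsPC1 level under that of a deleted gene, and by 0.88 in BxPC3-R (log2). SLC2A12 (GLUT12) changed by 0.94 in AsPC1-R and -1.497 in BxPC3-R, with AsPC1 and BxPC3-R under the level of a deleted gene. HKDC1, a hexokinase-like enzyme, fell in BxPC3-R (-0.87) and was 2.45 higher on the log2 scale in AsPC1 than in BxPC3. Of 8 further glycogen genes, 1 rose and 2 fell in AsPC1-R (12.5% and 25%) and 1 rose in BxPC3-R (12.5%), where 11.6% and 8.64%, and 9.75%, of all genes did. Of 6 gluconeogenic genes, 1 rose and 1 fell in AsPC1-R (16.7% each). In BxPC3-R 3 fell (2 without BxPC3 replicate 2), or 50% beside 11.0% of all genes. FBP1, which opposes phosphofructokinase, was 3.41 higher in AsPC1 than in BxPC3.

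At the end of the pathway, LDHA, which turns pyruvate into lactate, had log2 changes of -0.004 in AsPC1-R and 0.021 in BxPC3-R, with intervals of -0.15 to 0.15 and -0.13 to 0.17. LDHB averaged 4.58 ± 0.31 in AsPC1 and 13.01 ± 0.060 in BxPC3 (log2 difference -8.44), and its level in AsPC1 is under that of a deleted gene.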

How the data were processed

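Total RNA of 4 pancreatic ductal adenocarcinoma groups, 3 arrays each, was measured on Affymetrix arrays. Each deposited value is a log2 level of 1 probe set. Per the submitters' processing notes, RMA and Affymetrix Expression Console (versions not given) made them; RMA corrects background, quantile-normalizes arrays and summarises probes, so the values hold no measure of depth. The genome build behind the probe sets is not given in the sources used here.

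Of 33297 probe sets, 19460 have 1 gene symbol, 1754 several and 12083 none listed, and only those with 1 symbol were used. For 769 genes with several probe sets the one with the highest mean was kept, which left 18417 genes, 18389 of them found in RefSeq by gene number. No gene was filtered out before testing.

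limma 3.58.1 in R 4.3.3 (lmFit, eBayes) fitted 4 group means on all 12 arrays, with 8 residual and 5.47 prior degrees of freedom. Each derivative was set against its parental line (derivative minus parent), the change in AsPC1-R against that in BxPC3-R (first minus second), and AsPC1 against BxPC3. Tests were two-sided, with Benjamini-Hochberg adjustment over all 18417 genes, and "rose", "fell" and "called" mean an adjusted p under 0.05. Intervals are 95%. The fit was tested on simulated data.

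The genes, their grouping by role, the lists around them and the tests were chosen with earlier results of these data known. Genes given array by array were those called with at least a 1.5-fold change in a derivative or at least a 4-fold difference between the parental lines, HIF1A and EPAS1 in any case, and the largest called change of a role with no such gene. Of the lists around them, up to 3 genes per list and contrast are named. Alternatives were the replicate block, leaving out genes under the median level, the mean over probe sets, renewed quantile normalization, median centring, a threshold of 0.01, eBayes with trend and robust, fits of the compared groups alone, and leaving out each array.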

Additional observations from a re-analysis of the deposited data

Results flagged for a closer look

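The change in AsPC1-R and the change in BxPC3-R differed for 21 of the 42 genes by the test of the difference itself (limma, adjusted p under 0.05 over all genes), given here as the log2 change in AsPC1-R minus that in BxPC3-R. Among HIF subunits and hydroxylases these were HIF1A (0.76), EPAS1 (0.61) and EGLN3 (2.07). Among the enzymes of collagen they were P4HA2 (2.27), PLOD1 (0.73), PLOD2 (1.41) and LOX (0.50), with the AsPC1-R and AsPC1 levels of PLOD2 and LOX under that of a deleted gene. The other hypoxia genes were BNIP3L (0.96), VEGFA (0.58), NDRG1 (1.16) and KDM3A (0.55) on the high side and CA12 (-0.73) on the low side. Among glucose genes SLC2A1 (0.98), HK1 (0.73), HK2 (0.88), ALDOC (1.29), ENO2 (0.97), PFKFB3 (1.25) and PDK3 (0.56) lay on the high side, and GPI (-0.59) and GAPDH (-0.39) on the low side. The causes were not tested. Groups of 3 arrays are too small for a check of single outlying values.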

How the results depend on the processing

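No called change of the 18 genes given array by array turned its direction under any alternative run. Counts of the 42 genes called, with 1 array left out in turn, were 11 to 18 in AsPC1-R, 14 to 20 in BxPC3-R, 19 to 22 for the difference between the lines and 29 to 34 between the parental lines. Over all genes they were 2869 to 4246, 2970 to 4181, 3961 to 5296 and 7729 to 9899. At an adjusted p under 0.01, 2279 genes of all tested changed in AsPC1-R, 2495 in BxPC3-R and 2998 for the difference, fewer by construction. Median centring gave 13 higher and 1 lower of the 42 in AsPC1-R against 12 and 3 as reported. For the 18 genes, single values lost the call in 30 cases and gained it in 4 with an array left out, and in 8 and 7 cases under the other alternatives.

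Same-numbered arrays did not deviate together (correlations of deviations from group means between -0.24 and 0.17), so the numbers were not used as pairs. With the replicate block, 14, 18, 21 and 33 of the 42 genes were called in the order above, and 3553, 3661, 4525 and 9184 of all genes. Of the 42 genes, EGLN1 in AsPC1-R (adjusted p = 0.0609) and BNIP3L between the parental lines (0.0572) lost their calls with it. What 1 array decides is given beside those of the 42 genes whose calls changed. For the genes around the list, only the fit without BxPC3 replicate 2 was read, so what other arrays decide for them is not given. The number of arrays, and levels near that of a deleted gene, limit what can be seen.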
